A study of Homo sapiens with 18 samples.

Results

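The 36 aminoacyl-tRNA synthetase genes described here were taken by name from a table of 23713 genes. They comprise 20 cytosolic enzymes and 16 mitochondrial enzymes, the mitochondrial ones being those whose names end in 2. RNA was sequenced from MOLM-13, an established human acute monocytic leukaemia line, in 18 libraries, 3 for each of 6 groups. The groups were cells given dTRIM24, IACS-9571 or DMSO, the solvent control, each for 4 h and for 24 h. All groups were this line in RPMI medium with serum, and the labels name no genetic change, so TRIM24 was targeted by compound alone. IACS-9571 is a bromodomain inhibitor of TRIM24 and of BRPF1, and dTRIM24 is a degrader that couples such an inhibitor to a VHL ligand and so brings TRIM24 to a ubiquitin ligase. The labels give neither doses nor whether libraries of 1 group came from separate cultures. Each gene has a single deposited mean per group, in FPKM, which by definition is read fragments per transcript length and library size. Levels of different genes can so be compared. Between groups, the columns lie closer to a common level of added synthetic RNAs than to a common total, as given below. Replicate errors, tests and sequencing depth cannot be had from such means, and every value below is a description of them.

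Aminoacyl-tRNA synthetases join each amino acid to its own transfer RNA, the step that fixes the genetic code during protein synthesis. Human cells keep separate sets for the cytosol and for mitochondria, both encoded in the nucleus, except that KARS and GARS each encode the enzyme of both compartments. Several cytosolic enzymes sit together in a multi-synthetase complex held by the scaffold proteins AIMP1, AIMP2 and EEF1E1. When amino acids run short or the endoplasmic reticulum is stressed, the transcription factor ATF4 raises many cytosolic synthetase genes together with genes of amino acid synthesis and uptake. It does so through composite elements bound with C/EBP proteins, which often hold the letters TGATGCAA.

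That element marks the promoters of part of the set, so the stretches that hold it are shown before the values. RefSeq windows of 300 bases (250 before to 50 after the transcript start, GRCh38.p14) were found for 30 of the 36 genes. DARS, LARS, VARS, YARS, AARS2 and VARS2 had no entry. The motif TGATGNAA was searched on both strands. It was present in 7 of 16 cytosolic genes with a window and in 1 of 14 mitochondrial genes, YARS2, against 4.46% of all 27305 genes with a window (3.62% of all 35116 windows). All 7 cytosolic holders belong to the 12 enzymes often listed as ATF4-driven, of which 10 had a window; none of the other 6 cytosolic genes with a window held it. Each line below gives 60 bases in the direction of the gene, with the match in capitals (TTNCATCA where it lies on the opposite strand).
AARS (chr16:70289660-70289719, minus strand): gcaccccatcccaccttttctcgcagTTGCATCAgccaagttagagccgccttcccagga
CARS (chr11:3057392-3057451, minus strand): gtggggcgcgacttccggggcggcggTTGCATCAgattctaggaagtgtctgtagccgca
GARS (chr7:30594819-30594878, plus strand): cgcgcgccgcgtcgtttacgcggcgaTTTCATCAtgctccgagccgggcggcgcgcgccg
IARS (chr9:92293677-92293736, minus strand): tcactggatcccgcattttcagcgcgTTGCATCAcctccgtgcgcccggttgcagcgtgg
MARS (chr12:57488038-57488097, plus strand): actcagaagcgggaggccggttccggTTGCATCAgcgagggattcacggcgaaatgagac
NARS (chr18:57621789-57621848, minus strand): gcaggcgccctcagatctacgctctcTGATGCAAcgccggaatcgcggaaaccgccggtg
TARS (chr5:33440941-33441000, plus strand): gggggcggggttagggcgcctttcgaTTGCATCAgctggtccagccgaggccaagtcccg
YARS2 (chr12:32756061-32756120, minus strand): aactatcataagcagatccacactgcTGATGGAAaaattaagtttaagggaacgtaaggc
The matches of CARS, IARS, MARS and TARS began at -2, -13, -4 and 2, counted from 0 at the first transcribed base, and that of NARS began at 14. AARS and YARS2 held theirs further upstream, at -187 and -197, while GARS had its match at -33 of its downstream start. The form TGATGCAA was found in all of these except GARS and YARS2, which hold another letter at the free position. A match describes letters only, and binding was not measured.

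3 further motifs were searched on both strands. CCGGAAG, the core bound by ETS factors, was in 9 of 16 cytosolic and 7 of 14 mitochondrial genes with a window, against 12.2% of all genes. CCAAT, the box bound by NF-Y, was in 7 of 16 cytosolic and 9 of 14 mitochondrial genes, against 39.7%. CACGTG, the E-box that MYC and other factors bind, was in 1 of 16 cytosolic and 3 of 14 mitochondrial genes, against 8.77%. IARS was the cytosolic gene with the E-box, and CARS2, EARS2 and MARS2 were the mitochondrial ones. No match in these genes overlapped a match of another motif. The whole IARS window is shown because it alone held the ATF4 form, the E-box and the CCAAT box, all in capitals.
IARS (chr9:92293648-92293947, minus strand): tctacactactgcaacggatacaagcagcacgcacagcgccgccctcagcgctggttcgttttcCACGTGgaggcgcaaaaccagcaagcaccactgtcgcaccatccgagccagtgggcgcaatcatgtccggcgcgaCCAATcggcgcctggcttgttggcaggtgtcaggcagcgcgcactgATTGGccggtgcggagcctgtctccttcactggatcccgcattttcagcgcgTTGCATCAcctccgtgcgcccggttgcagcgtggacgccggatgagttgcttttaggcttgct
HARS and HARS2, the cytosolic and mitochondrial histidyl enzymes, face away from each other, and their windows share 184 bases. That stretch is shown because both CCGGAAG matches (in capitals, CTTCCGG on the opposite strand) lie in it and so belong to both genes.
HARS2 and HARS shared (chr5:140691321-140691504, plus strand): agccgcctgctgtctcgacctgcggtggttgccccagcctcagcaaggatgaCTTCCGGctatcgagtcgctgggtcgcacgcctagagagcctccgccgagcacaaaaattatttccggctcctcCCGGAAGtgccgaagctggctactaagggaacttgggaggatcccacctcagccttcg

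All 36 genes reached 1 FPKM in at least 1 group, the bound used to keep a gene, as did 11051 genes in all. Levels were far apart between the compartments. The median cytosolic enzyme was at 118 FPKM with dTRIM24, 121 with IACS-9571 and 123 with DMSO at 4 h. After 24 h this median was 115 FPKM with dTRIM24, 96.6 with IACS-9571 and 101 with DMSO. The median mitochondrial enzyme stood at 13.7 FPKM with dTRIM24, 13.7 with IACS-9571 and 14.96 with DMSO at 4 h, close to the median of all kept genes (12.1, 12.2 and 12.2 FPKM in the same groups). At 24 h the mitochondrial median was 15.2 FPKM with dTRIM24, 11.6 with IACS-9571 and 11.4 with DMSO. The cytosolic enzymes together made up between 0.322% (IACS-9571, 24 h) and 0.333% (dTRIM24, 4 h) of the summed FPKM of kept genes, and the mitochondrial ones between 0.0434% (DMSO, 4 h) and 0.0459% (IACS-9571, 24 h).

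**Figure D1:**
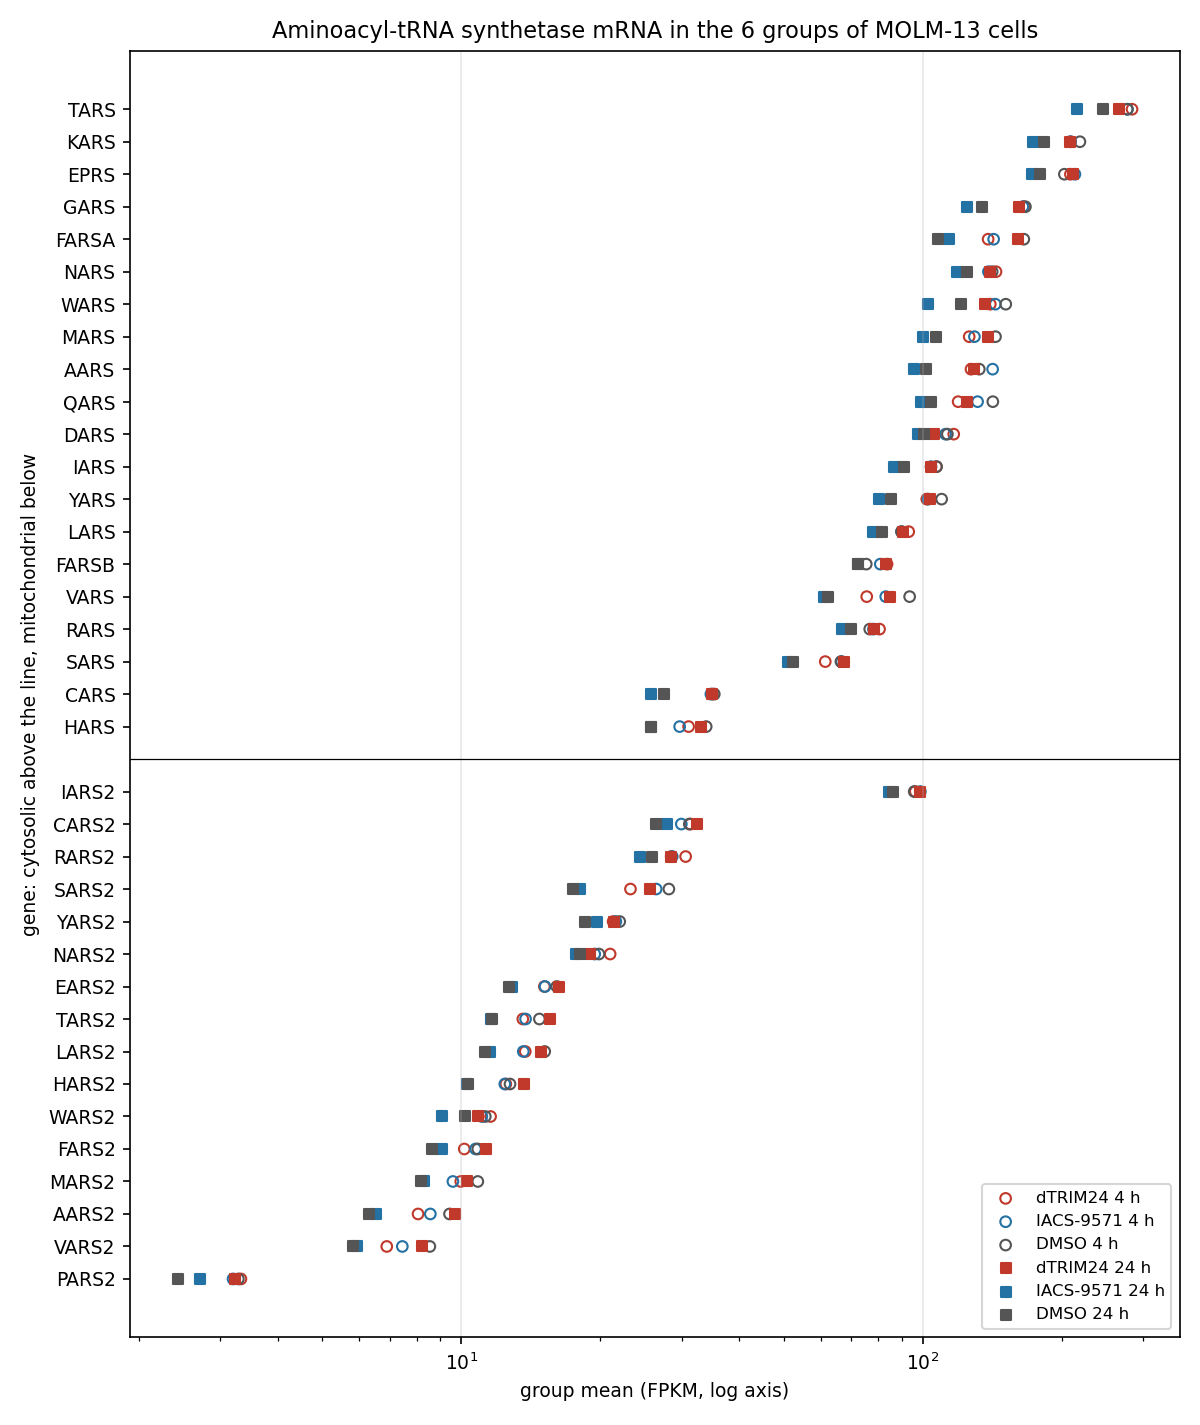
Group mean of each synthetase gene in FPKM on a log axis, cytosolic enzymes above the line and mitochondrial enzymes below, ordered by level; open circles are 4 h, filled squares 24 h, and colours are the compounds. The 24 h squares of IACS-9571 and DMSO lie to the left of the other 4 groups in each of the 36 rows, and IARS2 alone among the mitochondrial enzymes lies within the cytosolic range above 50 FPKM.

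TARS, the cytosolic threonyl enzyme, was the most abundant member. It had 284 FPKM with dTRIM24, 277 with IACS-9571 and 277 with DMSO at 4 h, and 267 with dTRIM24, 216 with IACS-9571 and 246 with DMSO at 24 h. KARS, which charges lysine in both compartments, had 209 FPKM with dTRIM24, 209 with IACS-9571 and 219 with DMSO at 4 h, and 209 with dTRIM24, 173 with IACS-9571 and 183 with DMSO at 24 h. Both were lowest with IACS-9571 at 24 h. EPRS, a fused enzyme for glutamate and proline that is a core of the multi-synthetase complex, had 209 FPKM with dTRIM24, 213 with IACS-9571 and 202 with DMSO at 4 h, and 212 with dTRIM24, 172 with IACS-9571 and 179.7 with DMSO at 24 h. GARS, the glycyl enzyme of both compartments, had 165 FPKM with dTRIM24, 165 with IACS-9571 and 167 with DMSO at 4 h, and 162 with dTRIM24, 124 with IACS-9571 and 134 with DMSO at 24 h. In these 4 genes, as in all 36, both IACS-9571 and DMSO at 24 h were below each of the other 4 groups, which was so for 84.5% of all kept genes.

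FARSA and FARSB encode the alpha and beta subunits of the cytosolic phenylalanyl enzyme, and their mRNAs varied to different degrees. FARSA had 138 FPKM with dTRIM24, 142 with IACS-9571 and 165 with DMSO at 4 h, and 160.3 with dTRIM24, 114 with IACS-9571 and 108 with DMSO at 24 h. FARSB had 83.6 FPKM with dTRIM24, 80.8 with IACS-9571 and 75.4 with DMSO at 4 h, and 83.3 with dTRIM24, 72.2 with IACS-9571 and 72.3 with DMSO at 24 h. The FARSA values spanned 1.54-fold over the 6 groups, against 1.16-fold for FARSB, the smallest span of the 36 genes. FARSA transcripts have 60.3% GC and FARSB transcripts 41.6%, a property that ran with the differences in general, as described below.

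CARS, the cysteinyl enzyme, and HARS, the histidyl enzyme, were the least abundant cytosolic members. CARS had 34.99 FPKM with dTRIM24, 34.7 with IACS-9571 and 35.3 with DMSO at 4 h, and 34.9 with dTRIM24, 25.8 with IACS-9571 and 27.4 with DMSO at 24 h. HARS had 31.1 FPKM with dTRIM24, 29.7 with IACS-9571 and 33.9 with DMSO at 4 h, and 33.05 with dTRIM24, 25.7 with IACS-9571 and 25.7 with DMSO at 24 h. SARS, the seryl enzyme, was next in order. It had 61.4 FPKM with dTRIM24, 66.6 with IACS-9571 and 66.4 with DMSO at 4 h, and 67.6 with dTRIM24, 50.98 with IACS-9571 and 52.4 with DMSO at 24 h. In these 3 genes DMSO and IACS-9571 at 24 h were within 2 FPKM of each other. Between these ends lay 12 cytosolic genes with means between 75.1 FPKM (RARS, arginine) and 134 FPKM (NARS, asparagine). Of these, VARS (valine), RARS and FARSB were neighbours that differed by less than the span of any of them over the groups, at 76.7, 75.1 and 77.9 FPKM on average. So were MARS (methionine), AARS (alanine) and QARS (glutamine), at 124, 121 and 120.0 FPKM.

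IARS2, the mitochondrial isoleucyl enzyme, stood apart from its class, with 96.3 FPKM with dTRIM24, 98.7 with IACS-9571 and 95.7 with DMSO at 4 h, and 98.4 with dTRIM24, 84.4 with IACS-9571 and 85.9 with DMSO at 24 h. This is near the level of its cytosolic counterpart IARS, which had 107 FPKM with dTRIM24, 104 with IACS-9571 and 107 with DMSO at 4 h, and 104 with dTRIM24, 86.8 with IACS-9571 and 91.1 with DMSO at 24 h. Both isoleucyl genes were lowest with IACS-9571 at 24 h. CARS2, the cysteinyl enzyme of mitochondria, came next and had 31.3 FPKM with dTRIM24, 29.96 with IACS-9571 and 31.2 with DMSO at 4 h, and 32.4 with dTRIM24, 27.9 with IACS-9571 and 26.4 with DMSO at 24 h. RARS2, the arginyl enzyme, had 30.6 FPKM with dTRIM24, 28.6 with IACS-9571 and 28.5 with DMSO at 4 h, and 28.4 with dTRIM24, 24.4 with IACS-9571 and 25.9 with DMSO at 24 h. CARS2 was above RARS2 in each group. YARS2, the tyrosyl enzyme, had 21.3 FPKM with dTRIM24, 21.6 with IACS-9571 and 22.03 with DMSO at 4 h, and 21.4 with dTRIM24, 19.6 with IACS-9571 and 18.5 with DMSO at 24 h. EARS2 (glutamate), HARS2 (histidine) and FARS2 (phenylalanine) followed in the middle of the class, with means over the groups of 14.7, 11.99 and 10.1 FPKM. PARS2, the mitochondrial prolyl enzyme, was the lowest member, with 3.33 FPKM with dTRIM24, 3.20 with IACS-9571 and 3.29 with DMSO at 4 h, and 3.24 with dTRIM24, 2.71 with IACS-9571 and 2.43 with DMSO at 24 h. VARS2, the valyl enzyme, had 6.89 FPKM with dTRIM24, 7.45 with IACS-9571 and 8.54 with DMSO at 4 h, and 8.23 with dTRIM24, 5.94 with IACS-9571 and 5.82 with DMSO at 24 h. AARS2, the alanyl enzyme, had 8.06 FPKM with dTRIM24, 8.57 with IACS-9571 and 9.43 with DMSO at 4 h, and 9.67 with dTRIM24, 6.52 with IACS-9571 and 6.32 with DMSO at 24 h. Of these 3 lowest members, VARS2 was highest in DMSO at 4 h and AARS2 was highest with dTRIM24 at 24 h.

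Ratios between the compartments differed widely between amino acids and little between groups. TARS exceeded TARS2 20.9-fold with dTRIM24, 20.1-fold with IACS-9571 and 18.8-fold with DMSO at 4 h, and 17.1-fold with dTRIM24, 18.6-fold with IACS-9571 and 21.1-fold with DMSO at 24 h. AARS exceeded AARS2 by 15.1-fold and MARS exceeded MARS2 by 12.98-fold on average over the groups. For cysteine and isoleucine the mean ratio was 1.07 and 1.07. CARS/CARS2 was the only one of the 13 pairs with a value under 1 in any group, 0.923 with IACS-9571 at 24 h. Over the 6 groups the ratio of a pair varied by between 1.05-fold (RARS/RARS2) and 1.27-fold (SARS/SARS2).

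Some of these values are uncertain because the sources used here do not say how reads on copies or on either strand were counted. By GENCODE 29, 11 of the 36 genes have a pseudogene named after them (AARS, CARS, FARSB, GARS, KARS, NARS, RARS, WARS, IARS2, TARS2 and WARS2). HARS2 shares 11.7% of its exon bases with HARS on the other strand, and SARS2 shares 10.8% with MRPS12, a mitochondrial ribosomal protein gene of up to 142 FPKM, on the other strand. SARS2 also shares 46.2% with AC011455.2 on its own strand, a gene not analysed here. VARS2 shares 22.0% with GTF2H4 on its own strand. MARS shares 5.05% with DDIT3, a stress-induced factor, on the other strand.

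Differences are of log2(FPKM + 1), a scale that understates the change of low genes such as PARS2. They were read against all 11051 kept genes and against 25 ERCC spike-ins, synthetic RNAs mixed into the samples. Over the 25, the SD of the difference was 0.11 to 0.22 depending on the comparison. It is a spread over single RNAs and not over replicates, and it does not give the error of a list median. Column totals lay between 771830 and 1058350 FPKM while the spike-in medians lay between 29.7 and 31.7 FPKM. The median spike-in difference lay between -0.06 and 0.02 in the 9 comparisons, and the all-gene median between -0.26 and 0.28. The columns thus behave as if set to the spike-ins rather than to library size alone. What they were scaled to was not tested. TRIM24, the target, had 17.3 FPKM with dTRIM24, 17.6 with IACS-9571 and 14.6 with DMSO at 4 h, and 17.2 with dTRIM24, 14.02 with IACS-9571 and 13.97 with DMSO at 24 h, which does not check the labels, since both compounds act on the protein. As a check of the line, 10 of 10 myeloid leukaemia markers reached 1 FPKM (summed level 623 to 884 FPKM) and 0 of 4 T cell markers (0.642 to 1.01 FPKM) and 0 of 4 erythroid markers (0.376 to 0.439 FPKM) did. Of 4 B cell markers PAX5 did (4.28 to 6.69 FPKM), and of 4 epithelial markers KRT8 and KRT18 did (24.2 to 32.2 FPKM).

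With dTRIM24 at 4 h the synthetase genes stayed near DMSO. None of the 36 was past 1.3-fold (a difference of 0.38) in either direction, against 2.59% of all kept genes, and 23 lay below DMSO, against 52.2% of all kept genes. The median was -0.04 for cytosolic and -0.06 for mitochondrial enzymes, beside -0.01 for all kept genes. VARS, of the valyl enzyme, was the lowest relative to DMSO. It had 75.5 FPKM with dTRIM24, 83.1 with IACS-9571 and 93.6 with DMSO at 4 h, and 84.8 with dTRIM24, 60.9 with IACS-9571 and 62.1 with DMSO at 24 h. Its difference from DMSO at 4 h was -0.31. QARS, the glutaminyl enzyme, had 119 FPKM with dTRIM24, 131 with IACS-9571 and 142 with DMSO at 4 h, and 125 with dTRIM24, 99.1 with IACS-9571 and 104 with DMSO at 24 h, and differed by -0.25. MARS, the methionyl enzyme, had 126 FPKM with dTRIM24, 129 with IACS-9571 and 144 with DMSO at 4 h, and 138 with dTRIM24, 100.3 with IACS-9571 and 106 with DMSO at 24 h, and differed by -0.19. All 3 were lowest with dTRIM24 among the groups of 4 h. FARSA differed by -0.26, while FARSB was the highest at 0.15. Among mitochondrial enzymes VARS2 differed by -0.27, SARS2 by -0.27 and AARS2 by -0.20, and RARS2 was the highest at 0.10. The SD of the spike-ins in this comparison was 0.21.

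The genes that lay lowest include those with the most GC-rich transcripts, as the plot of differences against GC content shows. Over the 36 members the Spearman correlation of the difference with transcript GC content was -0.81, and over the 10240 kept genes with a GC value it was -0.73. The points share the same libraries, and genes are not replicates. VARS, SARS2, FARSA, VARS2 and AARS2, the 5 members of highest GC content, have between 59.3% and 62.6%. With a cubic trend on GC content taken out, VARS stood at -0.15, FARSA at -0.12 and QARS at -0.17, and 30 of the 36 members lay below 0, beside 6165 of 10240 kept genes, with a median of -0.04 in the cytosolic and -0.04 in the mitochondrial class and -0.02 over all kept genes. What moves with GC content in these libraries was not tested.

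**Figure D2:**
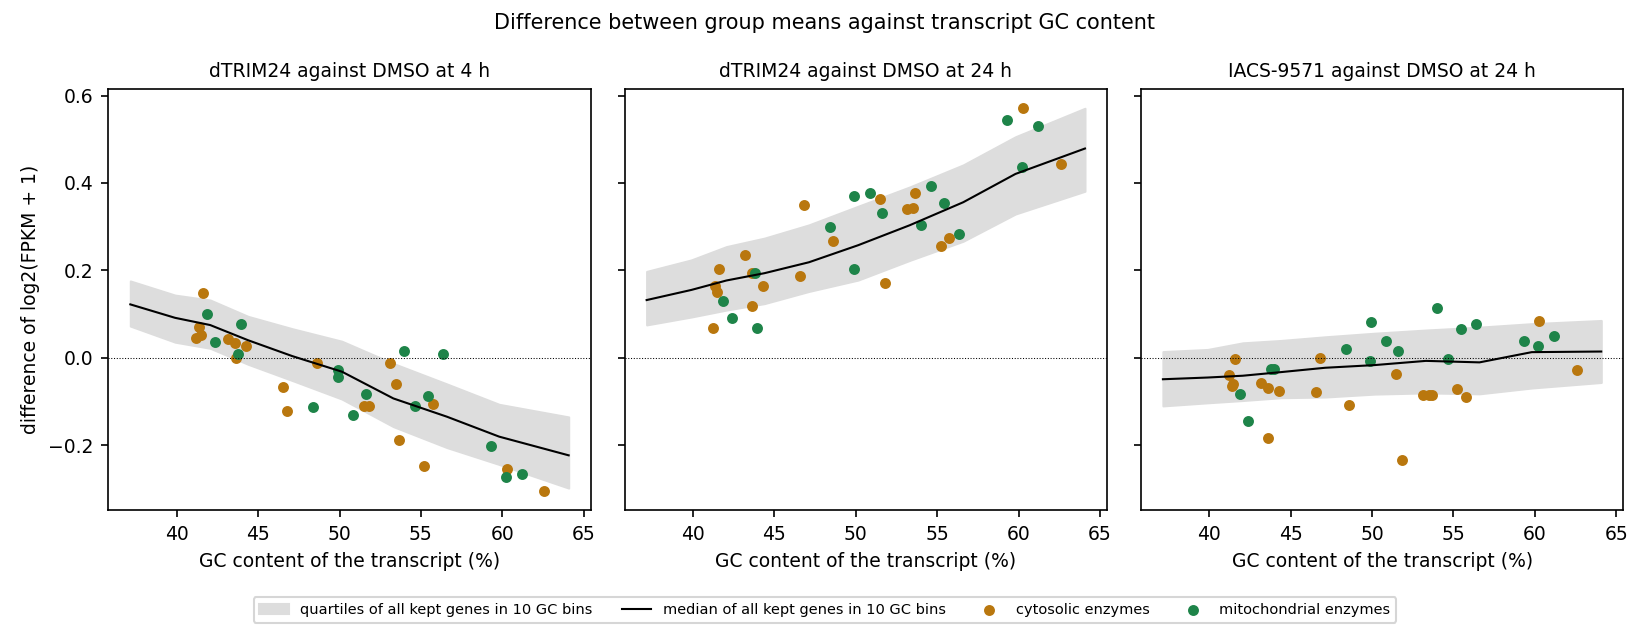
Difference of log2(FPKM + 1) between group means against the GC content of the transcript for 3 comparisons, with members as points and the medians and quartiles of all kept genes in 10 bins as line and band. The members follow the band downwards with dTRIM24 at 4 h and upwards at 24 h, while with IACS-9571 at 24 h most cytosolic points lie under the line and most mitochondrial points above it.

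With IACS-9571 at 4 h 28 of 36 members lay below DMSO, against 49.9% of all kept genes, and none was past 1.3-fold, against 1.60%. The cytosolic median was -0.03 and the mitochondrial median -0.05, beside 0.00 for all kept genes and an SD of 0.11 among the spike-ins. FARSA differed by -0.22, HARS by -0.19, VARS by -0.17 and MARS by -0.15. Of the mitochondrial genes VARS2 differed by -0.18, MARS2 by -0.16 and LARS2 by -0.14. MARS2, the methionyl enzyme of mitochondria, had 9.97 FPKM with dTRIM24, 9.59 with IACS-9571 and 10.9 with DMSO at 4 h, and 10.3 with dTRIM24, 8.31 with IACS-9571 and 8.19 with DMSO at 24 h. LARS2, the leucyl enzyme, had 13.8 FPKM with dTRIM24, 13.6 with IACS-9571 and 15.2 with DMSO at 4 h, and 14.9 with dTRIM24, 11.6 with IACS-9571 and 11.2 with DMSO at 24 h. In both genes DMSO was the highest of the groups of 4 h. AARS and FARSB were the highest, each at 0.10. The counts of both compounds at 4 h rest on the same DMSO mean.

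Set directly against each other at 4 h, the compounds differed by a median of 0.00 in the cytosolic and 0.00 in the mitochondrial class, beside -0.02 over all kept genes. Above 0 lay 19 of 36 members, against 42.5% of all kept genes, and none was past 1.3-fold, against 1.27%. AARS had 127 FPKM with dTRIM24, 142 with IACS-9571 and 132 with DMSO at 4 h, and 129 with dTRIM24, 95.5 with IACS-9571 and 101 with DMSO at 24 h, a difference of -0.15 between dTRIM24 and IACS-9571 at 4 h. SARS2 differed by -0.18, QARS by -0.14 and NARS2 by 0.11. With no replicate values no interval can be given for these differences, so they do not show that the compounds act alike on these genes.

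**Figure D3:**
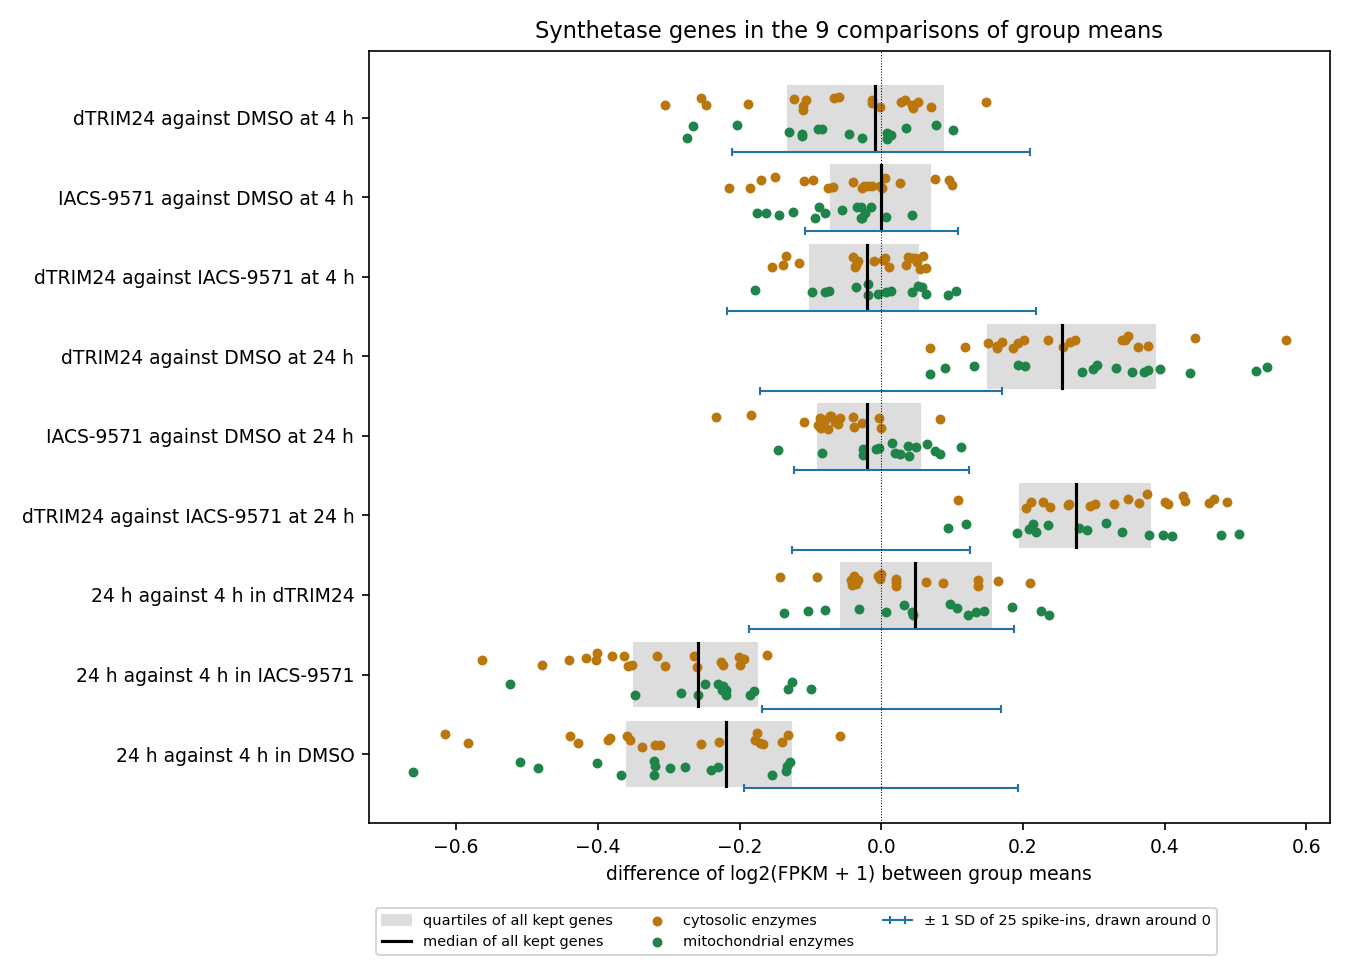
Difference of log2(FPKM + 1) of each synthetase gene in the 9 comparisons, cytosolic and mitochondrial enzymes in separate rows of points, with the median and quartiles of all kept genes as line and band and 1 SD of the 25 spike-ins around 0. The members lie around the all-gene median in each comparison, which is near 0 at 4 h, 0.26 with dTRIM24 against DMSO at 24 h and -0.02 with IACS-9571 against DMSO at 24 h.

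After 24 h with dTRIM24 all 36 synthetase genes lay above DMSO, as did 96.8% of all kept genes. Of the members 6 were past 1.3-fold higher, against 26.2% of kept genes, and none was past 1.5-fold (0.58), against 4.98%. The cytosolic median was 0.25 and the mitochondrial median 0.32, beside 0.26 for all kept genes, so the set differed from DMSO about as much as the table as a whole. FARSA differed by 0.57, VARS by 0.44, AARS2 by 0.54, SARS2 by 0.53, VARS2 by 0.44 and TARS2 by 0.39; these are the 6 past 1.3-fold. TARS2, the threonyl enzyme of mitochondria, had 13.6 FPKM with dTRIM24, 13.8 with IACS-9571 and 14.8 with DMSO at 4 h, and 15.6 with dTRIM24, 11.6 with IACS-9571 and 11.6 with DMSO at 24 h, its highest value being that of dTRIM24 at 24 h. LARS2, MARS, HARS2 and SARS followed at 0.38, 0.38, 0.37 and 0.36.

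The smallest differences were those of DARS, the aspartyl enzyme, and NARS2, the mitochondrial asparaginyl enzyme. DARS had 117 FPKM with dTRIM24, 112 with IACS-9571 and 113 with DMSO at 4 h, and 105 with dTRIM24, 97.7 with IACS-9571 and 101 with DMSO at 24 h, a difference of 0.07 at 24 h. NARS2 had 21.0 FPKM with dTRIM24, 19.4 with IACS-9571 and 19.9 with DMSO at 4 h, and 19.01 with dTRIM24, 17.7 with IACS-9571 and 18.1 with DMSO at 24 h, also a difference of 0.07. Both have GC-poor transcripts (41.2% and 43.9% GC), and over the 36 members the Spearman correlation of the difference with GC content was 0.81, against 0.61 over 10240 genes. Relative to the all-gene median 10 of 20 cytosolic and 11 of 16 mitochondrial genes were higher. With the GC trend taken out the median was 0.00 for cytosolic and 0.02 for mitochondrial genes, and FARSA stood at 0.17 and AARS2 at 0.15.

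The comparisons over time show that both 24 h columns other than dTRIM24 lay low. In dTRIM24 cells 21 of 36 members were higher at 24 h than at 4 h, against 61.4% of kept genes, and none was past 1.3-fold, against 3.63%; the cytosolic median was -0.0014, the mitochondrial median 0.07 and that of all kept genes 0.05. In IACS-9571 cells all 36 were lower at 24 h, against 97.0% of kept genes, with medians of -0.33 for cytosolic, -0.22 for mitochondrial and -0.26 for all kept genes. Of these, 8 were past 1.3-fold lower, against 19.1%, and none past 1.5-fold, against 2.50%. In DMSO cells all 36 were lower too, against 95.0%, with medians of -0.32, -0.31 and -0.22 for cytosolic, mitochondrial and all kept genes.

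In DMSO 10 members were past 1.3-fold lower at 24 h, against 22.5% of kept genes, and 2 past 1.5-fold lower, against 3.64%. These were SARS2, at -0.66, and FARSA, at -0.62, with VARS just short of the bound at -0.58. SARS2, the mitochondrial seryl enzyme, had 23.2 FPKM with dTRIM24, 26.4 with IACS-9571 and 28.2 with DMSO at 4 h, and 25.6 with dTRIM24, 18.1 with IACS-9571 and 17.4 with DMSO at 24 h. AARS2 differed by -0.51, VARS2 by -0.49 and QARS by -0.44, against -0.06 for FARSB and -0.13 for RARS. In IACS-9571 cells the lowest differences were those of AARS (-0.56), SARS2 (-0.52), WARS (-0.48) and VARS (-0.44). The DMSO and IACS-9571 means of 24 h are also those that dTRIM24 at 24 h was set against, so these values are not separate evidence. Less RNA per cell and the scaling of a column cannot be told apart in such means.

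Between dTRIM24 and IACS-9571 at 24 h all 36 members were higher with dTRIM24, against 98.4% of kept genes. Past 1.3-fold higher were 11, against 25.2%, and none was past 1.5-fold, against 3.21%. The cytosolic median was 0.34 and the mitochondrial median 0.28, beside 0.28 for all kept genes. AARS2 differed by 0.50, FARSA by 0.49, SARS2 by 0.48, VARS by 0.47, MARS by 0.46 and AARS by 0.43. With the GC trend taken out 17 of 20 cytosolic and 10 of 16 mitochondrial genes were above 0, beside 5287 of 10240 kept genes, with medians of 0.06 for cytosolic and 0.01 for mitochondrial genes, the spike-in SD being 0.13.

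With IACS-9571 against DMSO at 24 h the cytosolic genes lay slightly lower than the mitochondrial ones. Of the 20 cytosolic genes 18 lay below DMSO, and of the 16 mitochondrial genes 6 did, against 57.4% of all kept genes. None of the 36 was past 1.3-fold, against 1.25% of kept genes. The cytosolic median was -0.07, the mitochondrial median 0.02 and that of all kept genes -0.02, all within the spike-in SD of 0.12. The cytosolic direction depended on the scaling. With quantile normalization the medians were 0.018 for cytosolic and 0.032 for mitochondrial genes, and 7 of 20 cytosolic and 3 of 16 mitochondrial genes lay below DMSO, beside 5369 of 11051 kept genes. Relative to the all-gene median 17 of 20 cytosolic genes were lower and 12 of 16 mitochondrial genes higher. With the GC trend taken out 17 of 20 cytosolic genes were below 0 and 12 of 16 mitochondrial genes above it, beside 5175 below and 5065 above of 10240 kept genes, with medians of -0.05 for cytosolic and 0.03 for mitochondrial genes.

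WARS, the tryptophanyl enzyme, which is also known as an interferon-induced gene, was the lowest relative to DMSO. It had 139.9 FPKM with dTRIM24, 143 with IACS-9571 and 151 with DMSO at 4 h, and 136 with dTRIM24, 103 with IACS-9571 and 121 with DMSO at 24 h, a difference of -0.23 between IACS-9571 and DMSO at 24 h. TARS differed by -0.18, GARS by -0.11 and YARS by -0.09. YARS, the tyrosyl enzyme, had 102 FPKM with dTRIM24, 103 with IACS-9571 and 109.8 with DMSO at 4 h, and 103 with dTRIM24, 80.2 with IACS-9571 and 85.4 with DMSO at 24 h. In WARS, TARS, GARS and YARS alike the IACS-9571 mean of 24 h was the lowest of the 6. The exceptions among cytosolic genes were FARSA at 0.08 and HARS, which was level with DMSO (0.00). WARS2, the mitochondrial tryptophanyl enzyme, had 11.6 FPKM with dTRIM24, 11.1 with IACS-9571 and 11.3 with DMSO at 4 h, and 10.9 with dTRIM24, 9.10 with IACS-9571 and 10.2 with DMSO at 24 h. It was the lowest of its class at -0.15, and RARS2 stood at -0.08, whereas PARS2 was the highest at 0.11 and YARS2 stood at 0.08. PARS2 had under 4 FPKM in every group.

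Among the 13 amino acids with a cytosolic and a mitochondrial gene of matching name, the cytosolic gene had the lower difference in 11 and the mitochondrial gene in 2, histidine and arginine. Phenylalanine, glutamate and proline, whose cytosolic enzymes are 2-subunit or fused, were not counted. The median of cytosolic minus mitochondrial difference was -0.09, with a range of -0.18 to 0.02. The widest gap was that of threonine, with -0.18 for TARS and -0.0037 for TARS2, followed by tyrosine, with -0.09 for YARS and 0.08 for YARS2. With quantile normalization 9 of 13 were lower, with a median of -0.030. The gap was not particular to this comparison. For 24 h against 4 h in IACS-9571, which uses the same IACS-9571 mean, 10 of 13 cytosolic genes had the lower difference, with a median of -0.13, or 9 of 13 and -0.062 with quantile normalization. For 24 h against 4 h in DMSO it was 8 of 13 (median -0.06) and in dTRIM24 7 of 13 (-0.04). With dTRIM24 it was 9 against DMSO at 4 h (-0.03), 7 against IACS-9571 at 4 h (-0.04), 6 against DMSO at 24 h (0.01) and 5 against IACS-9571 at 24 h (0.04). The IACS-9571 cells of 4 h had 4 of 13 lower against DMSO (0.01).

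**Figure D4:**
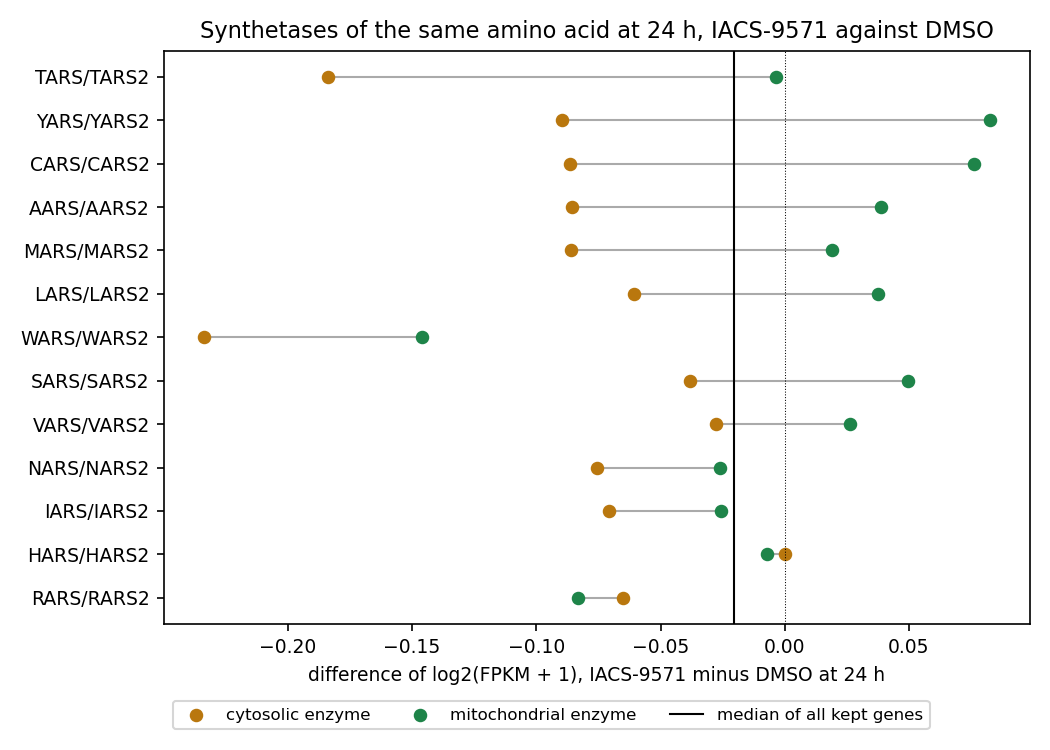
Difference of log2(FPKM + 1), IACS-9571 minus DMSO at 24 h, of the cytosolic and the mitochondrial synthetase gene of the same amino acid for 13 amino acids, with the median of all kept genes as a line. The cytosolic point lies to the left of the mitochondrial point in 11 of 13 rows, and none of the points is past 0.24 in size.

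With IACS-9571 against DMSO at 24 h 57.4% of all kept genes were below DMSO. The 12 cytosolic enzymes often listed as ATF4-driven were below in 12 of 12 cases, with a median of -0.09. The other 8 were below in 6 of 8, with a median of -0.03. With the GC trend taken out 12 of 12 and 5 of 8 were below 0, beside 5175 of 10240 kept genes, with medians of -0.07 and -0.02. With quantile normalization 7 of 12 and 0 of 8 were below 0, beside 5369 of 11051 kept genes. The medians are all within the spike-in SD of 0.12, which is a spread of single RNAs and cannot say whether list medians differ. Cytosolic genes with TGATGNAA in the window were below in 7 of 7 cases (median -0.09, range -0.18 to -0.07). Cytosolic genes with a window and no match were below in 7 of 9 (median -0.06, range -0.23 to 0.08). The ranges of these cytosolic lists overlap, and WARS, the lowest gene, held no match. YARS2, the mitochondrial gene with a match, lay above DMSO at 0.08. Of 20 ATF4 genes outside the synthetases 16 were below DMSO, against 57.4% of all kept genes, with a median of -0.12. With the GC trend taken out 16 of the 20 were below 0, with a median of -0.11. Their count was not recomputed with quantile normalization. PSAT1, of serine synthesis, had 161 FPKM with IACS-9571 and 194 with DMSO, differing by -0.27. ASNS, the asparagine synthetase, had 61.9 FPKM with IACS-9571 and 73.5 with DMSO. SLC7A11, the cystine transporter, lay the other way, with 6.82 FPKM with IACS-9571 and 5.48 with DMSO. ATF4 itself had 423 FPKM with dTRIM24, 423 with IACS-9571 and 438 with DMSO at 4 h, and 465 with dTRIM24, 325 with IACS-9571 and 350.4 with DMSO at 24 h.

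The same lists can be set side by side for dTRIM24. With dTRIM24 against DMSO at 24 h the medians were 0.25 for the 12 listed genes, 0.23 for the other 8 and 0.39 for the 20 ATF4 genes outside the set, beside 0.26 for all kept genes. Of the 20, 10 were past 1.3-fold higher and 2 past 1.5-fold, beside the 26.2% and 4.98% of kept genes given above. With the GC trend taken out the median of the 20 was 0.03. DDIT4, a stress-induced inhibitor of mTORC1, differed by 0.61 and CHAC1, which degrades glutathione, by 0.60. At 4 h the medians with dTRIM24 against DMSO were -0.01 for the 12 listed genes, -0.09 for the other 8 and -0.04 for the 20 outside the set. With dTRIM24 against IACS-9571 at 24 h they were 0.37, 0.30 and 0.47 in that order, beside 0.28 for all kept genes. Of the 20, 16 were past 1.3-fold higher there, against 25.2% of kept genes. With the GC trend taken out their median was 0.19 and 18 were above 0, beside 5287 of 10240 kept genes. The IACS-9571 mean is the one set against DMSO above.

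Split by structure, the 10 class I and the 10 class II cytosolic genes had medians of 0.25 and 0.23 with dTRIM24 against DMSO at 24 h, and of -0.07 and -0.06 with IACS-9571 against DMSO at 24 h. The 8 enzymes of the multi-synthetase complex had medians of 0.19 and -0.07 in the same comparisons. All 8 lay below DMSO with IACS-9571 at 24 h, as did 18 of the 20 cytosolic genes, against 57.4% of all kept genes. With quantile normalization 7 of the 20 cytosolic genes lay below DMSO, and the 8 were not counted apart under it. Of the scaffolds, AIMP1 differed by 0.02 and AIMP2 by -0.04 in that comparison. EEF1E1 had 45.8 FPKM with IACS-9571 and 57.3 with DMSO, a difference of -0.32, and is uncertain because the read-through gene EEF1E1-MUTED overlaps it.

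Elongation and mitochondrial translation genes use the charged tRNAs. The 6 cytosolic elongation genes had a median of -0.21 with dTRIM24 against DMSO at 4 h, 0.30 with dTRIM24 against DMSO at 24 h and -0.06 with IACS-9571 against DMSO at 24 h. All kept genes had -0.01, 0.26 and -0.02 in that order. With the GC trend taken out the elongation medians were -0.14, -0.05 and -0.04. EEF2, which moves the ribosome along the mRNA, had 1859.7 FPKM with dTRIM24 and 2286 with DMSO at 4 h. Of 13 mitochondrial translation genes 7 lay below DMSO with IACS-9571 at 24 h, against 57.4% of all kept genes, with a median of -0.02. TUFM, the mitochondrial elongation factor Tu, had 176 FPKM with dTRIM24, 126 with IACS-9571 and 131 with DMSO at 24 h.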

How the data were processed

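Values are FPKM that the authors deposited as 1 mean per group in 6 columns. The submitters' processing notes name TopHat2, Cuffnorm and hg19; the sources used here give neither versions nor the annotation, nor whether strand was used. The labels' treatment protocol puts all samples at 24 h, but titles and time points, which were followed, hold 4 h and 24 h. Per the labels' protocols, cell counts were normalized and ERCC spike-ins mixed in. The lowest value is 0.0878 FPKM and none is 0.

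The 92 spike-in rows and 1720 small-RNA rows were set aside, and 11051 genes with 1 FPKM or more in some group were kept. Differences of log2(FPKM + 1) between group means were taken in 9 comparisons and read at folds of 1.3, 1.5 and 2. The planned limma test needs library values, so none was run, and depth and counting error are unknown. GC content is that of the longest coding transcript per symbol in GENCODE 29 (10240 genes, 92.7%; all 36 members). Promoters are RefSeq's (GRCh38.p14), with older symbols matched through its synonyms; builds differ, so no other coordinates are given.

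Members and lists were chosen with earlier results of these data known. Named genes were, in each comparison, the 4 cytosolic and 3 mitochondrial members with the largest differences, the 5 highest and 3 lowest of each class, and up to 3 genes of each other list. FARSB, IARS, ATF4 and some others were named after their values were seen. The steps were tested on simulated data. The planted changes were larger than any difference of a synthetase gene between groups, so recovery of differences of that size was not tested. The software was Python 3.11.15 (numpy 2.4.6, pandas 2.3.3, scipy 1.17.1, matplotlib 3.10.9). Alternatives were other pseudocounts, filters, scalings, a GC correction and other folds.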

Additional observations from a re-analysis of the deposited data

How the results depend on the processing

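The 27 results, the class medians and the number of members past 1.5-fold in 9 comparisons, were recomputed under 11 alternatives. Of 261 values 226 stayed within the spike-in SD or within 1.5 times the count. Where a median is smaller than that SD, it can change sign and still count as staying. The cytosolic median with IACS-9571 against DMSO at 24 h did so, from -0.071 to 0.018. The 226 are therefore no measure of robustness. The 24 medians outside the spike-in SD belong to the comparisons with an all-gene shift. They arose under 3 settings that remove such a shift by construction: centring each group on its median, quantile normalization, and removal of the GC trend. In that order, the cytosolic median with dTRIM24 against DMSO at 24 h was -0.043, 0.028 and 0.00013, and the mitochondrial one 0.029, 0.040 and 0.025. Against IACS-9571 at 24 h the cytosolic median was 0.037, 0.034 and 0.058, and the mitochondrial one -0.017, -0.020 and 0.0092. For 24 h against 4 h the cytosolic median was -0.057, 0.0083 and -0.056 in IACS-9571 and -0.047, -0.029 and -0.065 in DMSO. The mitochondrial one was 0.055, 0.064 and 0.058 in IACS-9571 and -0.041, -0.035 and -0.0093 in DMSO. In all, 13 medians took the other sign, among them the cytosolic median with IACS-9571 against DMSO at 24 h, 0.018 with quantile normalization. The counts below 0 and the pair counts under that setting were added after the values were seen. Counts for the complex, class and motif lists were not recomputed under it. Nor were those for the ATF4 genes outside the set and the translation lists.

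With dTRIM24 against DMSO at 24 h no member was past 1.5-fold, but 1 was with a pseudocount of 0.1, 3 with rescaling to the spike-in median and 6 at 1.3-fold. At 1.3-fold the count was 11 with dTRIM24 against IACS-9571 at 24 h, 8 over time in IACS-9571 and 10 over time in DMSO. Over time in DMSO it was 2 at 1.5-fold, 0 with centring, quantile normalization, removal of the GC trend or a 2-fold bound, and 1 without the 14 uncertain members, which have a named pseudogene or share at least 10% of exon bases with another gene. No paired analysis was possible because the columns are group means, and for the same reason no replicate could be left out.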

Other observations

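Of 11 genes that act on tRNAs beside the synthetases, the median difference was 0.05 with dTRIM24 against DMSO at 4 h, 0.19 with dTRIM24 against DMSO at 24 h, and 0.00 with IACS-9571 against DMSO at 24 h. All kept genes had medians of -0.01, 0.26 and -0.02 in that order. TRNT1, which adds the CCA end to tRNAs, differed by 0.20 with dTRIM24 against DMSO at 4 h and by 0.20 at 24 h. Relative to the all-gene median TRNT1 stood at 0.21 at 4 h and at -0.06 at 24 h. XPOT, the nuclear exporter of tRNAs, had 192 FPKM with dTRIM24, 184 with IACS-9571 and 185 with DMSO at 4 h, and 189 with dTRIM24, 156 with IACS-9571 and 166 with DMSO at 24 h.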
